A study of Homo sapiens with 6 samples.

Results

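The genes described here are 7 human genes that respond to low oxygen and whose functions are less well known than those of the usual hypoxia genes, namely ANKRD37, AK4, FAM162A, FUT11, TMEM45A, PPFIA4 and SPAG4. They were listed by symbol and found among the gene names of the deposited count table, where all 7 of 21776 genes were present. RNA sequencing had been done on SCC25, an established cell line of human oral squamous cell carcinoma (a form of HNSCC), labelled as wild type. The line is given as GEO's labels name it, although the column names of the count table say only hnscc and a figure legend of the study names SCC9 for the transcriptome. The 3 hypoxia libraries came from cells kept for 12 h at 1% O2 and 5% CO2 in a tri-gas incubator, and the 3 normoxia libraries from cells kept for 12 h in an incubator with 5% CO2 and air. All were grown in DMEM/F12 with fetal bovine serum, and the conditions differed in oxygen and in the incubator. One line was studied, and the labels do not say whether the 3 libraries of a condition came from separate cultures, so the p-values below measure the spread between these libraries, which may be technical. Hypoxia replicates 1, 2 and 3 held 30186813, 36076088 and 32272716 counted reads, and their normoxia counterparts held 37278703, 29637189 and 29981208.

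Cells sense oxygen through hypoxia-inducible factor (HIF), a transcription factor made of an alpha and a beta subunit. Under normal oxygen, prolyl hydroxylases mark the alpha subunit for destruction by the VHL ubiquitin ligase. When oxygen is low the alpha subunit persists, pairs with ARNT and binds DNA at the core motif ACGTG or GCGTG, often close to the start of target genes for glycolysis, vessel growth and acid handling. The products of the 7 genes lie in different compartments. AK4 is an adenylate kinase family member of the mitochondrial matrix, and FAM162A is a mitochondrial protein that has been linked to cell death in hypoxia. FUT11 is a fucosyltransferase of the secretory pathway and TMEM45A a protein with several membrane spans. SPAG4, also called SUN4, belongs to the SUN proteins of the nuclear envelope and is best known from sperm. PPFIA4 encodes liprin-alpha-4, a scaffold protein studied at synapses, and ANKRD37 is a small protein with ankyrin repeats.

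The promoters are shown first, because the genes were listed as HIF targets and the HIF core motif can be read in them directly. Whether HIF acts on them in these cells was not tested. RefSeq promoter windows on GRCh38.p14, each from 250 bases before to 50 bases after a start site, were matched by symbol for 5 of the 7 genes; FUT11 and SPAG4 had none. AK4 has 4 windows, one for each of 4 start sites, and the others have 1 each. The windows printed below are those of ANKRD37 (chr4:185396591-185396890), the first of AK4 (chr1:65147302-65147601), FAM162A (chr3:122383932-122384231) and PPFIA4 (chr1:203026241-203026540), all on the plus strand and written 5′ to 3′. Capitals mark each ACGTG or GCGTG on either strand, so that the reverse strand reads as CACGT or CACGC, and a run CACGTG holds one motif on each strand.
ANKRD37: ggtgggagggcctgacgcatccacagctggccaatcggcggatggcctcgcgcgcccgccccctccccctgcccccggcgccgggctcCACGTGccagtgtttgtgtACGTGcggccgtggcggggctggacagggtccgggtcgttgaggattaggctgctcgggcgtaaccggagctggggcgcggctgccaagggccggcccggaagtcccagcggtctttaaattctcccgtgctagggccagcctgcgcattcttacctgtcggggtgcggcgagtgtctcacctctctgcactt
AK4: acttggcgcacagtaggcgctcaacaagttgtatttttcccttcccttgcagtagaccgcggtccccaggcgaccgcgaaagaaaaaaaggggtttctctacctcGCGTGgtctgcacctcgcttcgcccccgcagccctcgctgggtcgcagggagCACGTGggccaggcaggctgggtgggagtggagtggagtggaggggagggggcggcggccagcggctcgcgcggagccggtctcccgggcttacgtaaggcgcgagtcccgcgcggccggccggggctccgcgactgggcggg
FAM162A: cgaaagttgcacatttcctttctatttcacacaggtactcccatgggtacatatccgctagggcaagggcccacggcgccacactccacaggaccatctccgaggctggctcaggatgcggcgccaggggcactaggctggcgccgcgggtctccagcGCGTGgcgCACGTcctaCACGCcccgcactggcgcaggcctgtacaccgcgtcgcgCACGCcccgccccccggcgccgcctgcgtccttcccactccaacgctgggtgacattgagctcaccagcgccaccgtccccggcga
PPFIA4: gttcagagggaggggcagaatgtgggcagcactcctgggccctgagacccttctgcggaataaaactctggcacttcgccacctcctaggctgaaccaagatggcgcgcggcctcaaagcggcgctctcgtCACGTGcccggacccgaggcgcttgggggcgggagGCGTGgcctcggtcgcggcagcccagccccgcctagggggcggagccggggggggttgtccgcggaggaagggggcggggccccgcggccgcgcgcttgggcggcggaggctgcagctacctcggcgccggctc

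Of the 5 genes with a window, ANKRD37, AK4, FAM162A and PPFIA4 held the motif and TMEM45A did not. ANKRD37 had 3 matches, 162, 161 and 143 bases before its start site, the first 2 being both strands of a single CACGTG. PPFIA4 likewise had a CACGTG, with matches 119 and 118 bases before the start, and a further GCGTG 84 bases before it. FAM162A had 4 matches, 92, 84, 75 and 36 bases before the start, and no CACGTG. All 4 windows of AK4 held at least 1 match. In the whole table of 35116 windows of 300 bases, 48.4% held at least 1 match, 10.1% at least 3 and 7.3% a CACGTG, so that a match by itself is common. Among the 8096 tested genes with exactly 1 window, 63.6% held a match and 16% at least 3. The windows of the 5 genes were also richer in G and C (68.0% to 74.3%) than the median window (58.7%). The median over the tested genes with exactly 1 window was closer to them, at 65.3%. A match here is a description of letters; binding was not measured, and the absence of these letters from the window of TMEM45A says nothing about more distant sites.

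All 7 genes rose under hypoxia. Each of 14255 sufficiently counted genes was fitted with edgeR's quasi-likelihood model, p was adjusted over all of them by the Benjamini-Hochberg method, and changes are given as log2-fold changes, hypoxia over normoxia, with their standard errors (SE). At an adjusted p under 0.05, 7 of 7 were higher, where 39.2% of all genes tested were higher. The rises spanned from 2.2-fold for AK4 to 50.9-fold for PPFIA4, with a median log2-fold change of 2.84 against 0.02 over all genes tested. PPFIA4 met the filter on low counts in its 3 hypoxia libraries but not in all normoxia libraries, whereas the other 6 met it in both conditions. Each of the 7 had at least 10 counts in every library, and all 7 were also higher when only the 12665 genes with that many were tested. In all 7, the lowest hypoxia library lay above the highest normoxia library, as it did for 40.6% of all genes tested. Against the stricter null that the change is at most 2-fold (a log2-fold change of 1, by edgeR's glmTreat), 7 of 7 still had an adjusted p under 0.05, where 13.5% of all genes were higher by that test. AK4 passed it with the least room (adjusted p = 0.0338). For single genes, an exact permutation test of 3 libraries against 3 cannot give a p under 0.1, and the p-values therefore rest on the variance that edgeR estimates across genes.

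**Figure D1:**
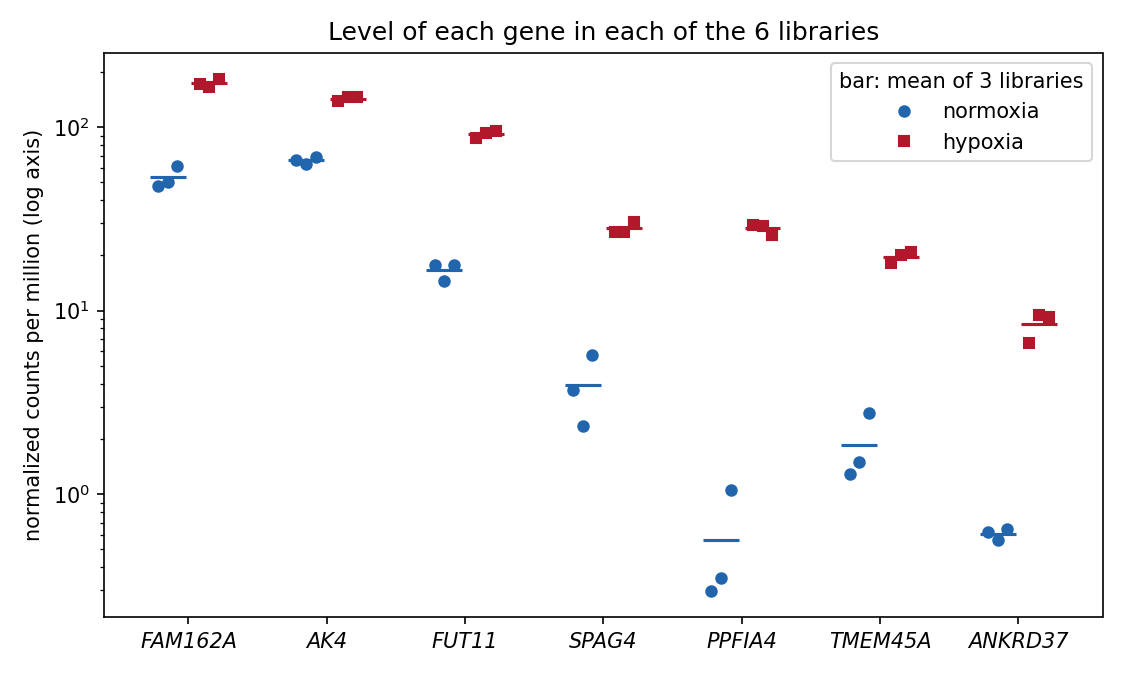
Level of each gene in each library, as CPM (counts scaled to the library size) after TMM normalization on a log axis; circles are normoxia, squares hypoxia, and bars the means of 3 libraries. In every gene the 3 hypoxia libraries lie above the 3 normoxia libraries, and the normoxia libraries of PPFIA4, TMEM45A and SPAG4 are spread more widely than their hypoxia libraries.

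PPFIA4, the liprin scaffold gene, had the largest rise. Its level, in CPM after TMM normalization (counts scaled to the effective library size, libraries always in the order of replicates 1 to 3), was 29.2, 29.04 and 25.9 under hypoxia against 0.296, 0.350 and 1.05 under normoxia. The hypoxia libraries were close together, whereas normoxia replicate 3 stood above the other normoxia libraries. The normoxia levels rest on 11, 10 and 31 counts. The log2-fold change was 5.67 (SE 0.22, edgeR adjusted p = 3.94e-13), which placed PPFIA4 at position 45 of 14255 genes ordered by fold change. Without normoxia replicate 3 it was 6.43, and without normoxia replicate 1 it was 5.30, so the size of this rise depended on single normoxia libraries while its direction and call did not.

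ANKRD37, the ankyrin repeat gene, stood at 6.65, 9.41 and 9.18 CPM in the hypoxia libraries and at 0.618, 0.559 and 0.642 CPM in the normoxia libraries. Here the normoxia libraries were the tighter group, and hypoxia replicate 1 was the lowest of the 3. The mean rose from 0.607 ± 0.0427 to 8.41 ± 1.53 CPM (SD, n = 3), a log2-fold change of 3.79 (SE 0.22, edgeR adjusted p = 5.08e-11). In GENCODE v29, ANKRD37 shares 909 exon bases with UFSP2 on the opposite strand, and the gene length behind its deposited FPKM is only 1029 bases. Whether strand was used in counting is not stated, so reads from these bases cannot be told apart. UFSP2 itself stood at 12.3 CPM in hypoxia and 10.4 in normoxia (log2-fold change 0.25, SE 0.11, edgeR adjusted p = 0.0575). With the counts of both genes summed, the log2-fold change was 0.92 (edgeR adjusted p = 1.18e-07).

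TMEM45A, which encodes a membrane protein, had 18.2, 20.03 and 20.8 CPM in hypoxia against 1.29, 1.503 and 2.77 CPM in normoxia. As for PPFIA4, normoxia replicate 3 was the highest of its group. The log2-fold change was 3.43 (SE 0.19, edgeR adjusted p = 2.29e-11), or 10.7-fold. SPAG4, the SUN-domain gene, had 26.99, 26.75 and 30.57 CPM in hypoxia and 3.71, 2.34 and 5.71 CPM in normoxia. Relative to their mean, the normoxia libraries of SPAG4 were widely spread (coefficient of variation 43.2%, against 7.6% in hypoxia), and the lowest hypoxia library was 4.68 times the highest normoxia library. Its log2-fold change was 2.84 (SE 0.18, edgeR adjusted p = 1.77e-10).

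FUT11, the fucosyltransferase gene, went from 17.7, 14.6 and 17.6 CPM in normoxia to 87.1, 92.9 and 94.7 CPM in hypoxia. Both groups were tight, and its p was the smallest of the 7, with a log2-fold change of 2.46 (SE 0.076, edgeR adjusted p = 3.35e-14). The mitochondrial genes FAM162A and AK4 were the most abundant of the 7 in CPM and changed least. FAM162A had 172.6, 166.4 and 183.8 CPM in hypoxia against 47.8, 50.5 and 61.2 CPM in normoxia, a 3.3-fold rise (log2-fold change 1.71, SE 0.077, edgeR adjusted p = 2.23e-12). AK4 had 138.7, 145.5 and 145.1 CPM in hypoxia and 66.6, 62.9 and 68.7 CPM in normoxia. It had the smallest spread among libraries of a condition, with a coefficient of variation of 2.7% in hypoxia and 4.5% in normoxia, and its log2-fold change was 1.11 (SE 0.055, edgeR adjusted p = 7.2e-12). It stood at position 2591 of 14255 by fold change, so that 81.8% of the genes tested lay below it.

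**Figure D2:**
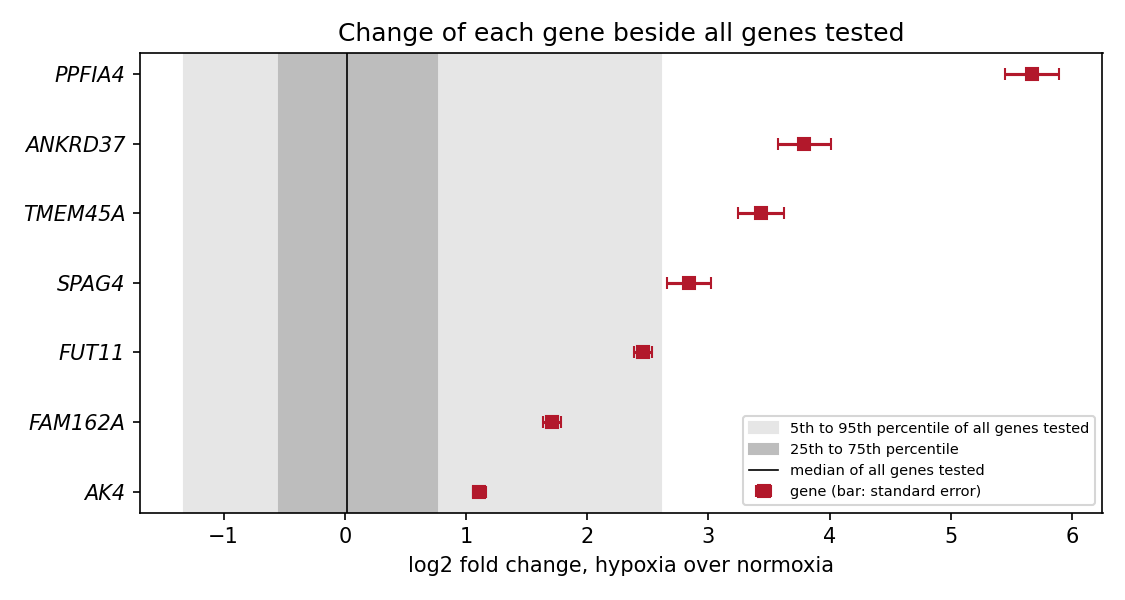
Log2-fold change of each gene (squares, with standard errors) beside the distribution of all 14255 genes tested, as shaded bands for the 5th to 95th and the 25th to 75th percentiles and a line for the median. PPFIA4, ANKRD37, TMEM45A and SPAG4 lie beyond the 95th percentile of 2.61, and FUT11, FAM162A and AK4 lie between the 75th percentile of 0.76 and the 95th.

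The place of single libraries recurred across the genes. With counts scaled to the library total only, normoxia replicate 3 was the highest of its 3 libraries for 6 of the 7 genes, all but FUT11, and normoxia replicate 2 was the lowest for 4. Hypoxia replicate 1 was the lowest for 5 of the 7 on that scale, and for 4 after TMM normalization, where replicate 2 was the lowest for SPAG4. The same places recurred in a list of 22 well-studied HIF targets, of which normoxia replicate 3 was highest for 17, normoxia replicate 2 lowest for 16 and hypoxia replicate 1 lowest for 17, on the scale of library totals. What set these libraries apart was not tested. Leaving out any 1 library left all 7 genes higher at an adjusted p under 0.05.

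Levels were compared between genes with the deposited FPKM (fragments scaled to gene length and to the reads counted), since longer genes collect more reads. In normoxia the order was FAM162A (17.1 ± 2.30 FPKM, SD, n = 3), AK4 (8.64 ± 0.501), FUT11 (6.98 ± 0.853), SPAG4 (2.37 ± 1.04), TMEM45A (0.864 ± 0.375), ANKRD37 (0.580 ± 0.0487) and PPFIA4 (0.0839 ± 0.0627). The ranges of TMEM45A and ANKRD37 overlapped, and those of all other neighbours in this order did not. In hypoxia the order was FAM162A (58.0 ± 2.28 FPKM, SD, n = 3), FUT11 (39.7 ± 1.83), AK4 (19.3 ± 0.649), SPAG4 (17.5 ± 1.17), TMEM45A (9.46 ± 0.658), ANKRD37 (8.31 ± 1.56) and PPFIA4 (4.31 ± 0.323). AK4 overlapped SPAG4 there, and TMEM45A overlapped ANKRD37. FUT11 thus stood below AK4 in normoxia and above it in hypoxia, and PPFIA4 was the lowest of the 7 in both. Among all 21776 genes, PPFIA4 moved from above 35.7% of genes to above 65.8%, ANKRD37 from 48.1% to 75.9%, and FAM162A from 84.7% to 95.6%. The levels and places of ANKRD37 may depend on how reads from the bases it shares with UFSP2 were counted.

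Relatives of the genes were examined from lists by family. Of 8 other adenylate kinases, which balance adenine nucleotides, 7 were tested, and 4 were higher, 2 lower and 1 did not pass (38.5% of all genes tested were lower at an adjusted p under 0.05). AK3, the matrix enzyme closest to AK4, had a log2-fold change of 0.25 (SE 0.052, edgeR adjusted p = 0.000291). AK7, an adenylate kinase known from cilia, rose by more than AK4, with a log2-fold change of 3.55 (SE 0.27), from a low level of 0.178 to 2.12 FPKM. AK8 (2.01, SE 0.49, edgeR adjusted p = 0.00131) and AK9 (1.07, SE 0.19, edgeR adjusted p = 5.02e-05) also rose, both from levels under those of AK7. With 13, 2 and 10 counts in normoxia, AK8 did not meet the filter on low counts in all normoxia libraries. It entered the test through hypoxia, where it is high. AK6 (-0.94) and AK1 (-0.43) fell on the log2 scale.

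Fucosyltransferases attach the sugar fucose to glycans and proteins. Of 12 others, 7 were tested, of which 3 rose and 4 fell, with a median log2-fold change of -0.71. Among all genes tested, 39.2% rose and 38.5% fell at an adjusted p under 0.05. FUT3, the Lewis blood group enzyme, rose by 1.15 on the log2 scale (SE 0.054). FUT8, which adds core fucose, had a log2-fold change of -0.76 (SE 0.063), POFUT1, which fucosylates Notch, one of -0.78 (SE 0.061), and FUT1, which makes the H antigen, one of -1.21 (SE 0.12). FUT11 in hypoxia, at 39.7 FPKM, stood beside FUT3 at 36.7 ± 0.896 FPKM as the most abundant of the family per length, while in normoxia POFUT1 (32.8 ± 2.42 FPKM, SD, n = 3) and FUT3 (16.0) were above FUT11 (6.98). FUT4, FUT5, FUT6, FUT7 and FUT9 had at most 11 counts in any library and did not enter the test.

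The tested relatives of the remaining genes had smaller log2-fold changes than the genes themselves. Among the liprins, PPFIA3 (log2-fold change 0.89) rose and PPFIA1 fell (-0.22), while PPFIBP1 (0.07) did not pass, and PPFIA2 was not in the table. PPFIBP2 passed the test (1.34, SE 0.5, edgeR adjusted p = 0.0206), but its conditions overlapped, with 32, 83 and 16 counts in hypoxia against 12, 21 and 14 in normoxia. PPFIA1 was at 17.2 FPKM in hypoxia and 19.4 in normoxia, above PPFIA4 in both. All 6 tested SUN and nesprin genes, which tether the nucleus to the cytoskeleton, were higher (39.2% of all genes tested were), with SYNE4 at a log2-fold change of 1.73 (SE 0.26), SYNE1 at 1.42 (SE 0.39) SYNE3 at 0.35 and SUN1 at 0.12 (SE 0.05, edgeR adjusted p = 0.0383). TMEM45B, the closest relative of TMEM45A, was at 13.1 FPKM in hypoxia and 11.2 in normoxia (log2-fold change 0.19, edgeR adjusted p = 0.0238). The 3 VDAC genes encode pores of the outer mitochondrial membrane and are set beside FAM162A here. They fell by 0.26 to 0.81 on the log2 scale, where 38.5% of all genes tested were lower. Of the FEM1 genes, which encode substrate receptors of ubiquitin ligases and are set beside ANKRD37 here, FEM1A fell by 1.57 on the log2 scale while FEM1B (0.28) and FEM1C (0.41) rose.

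**Figure D3:**
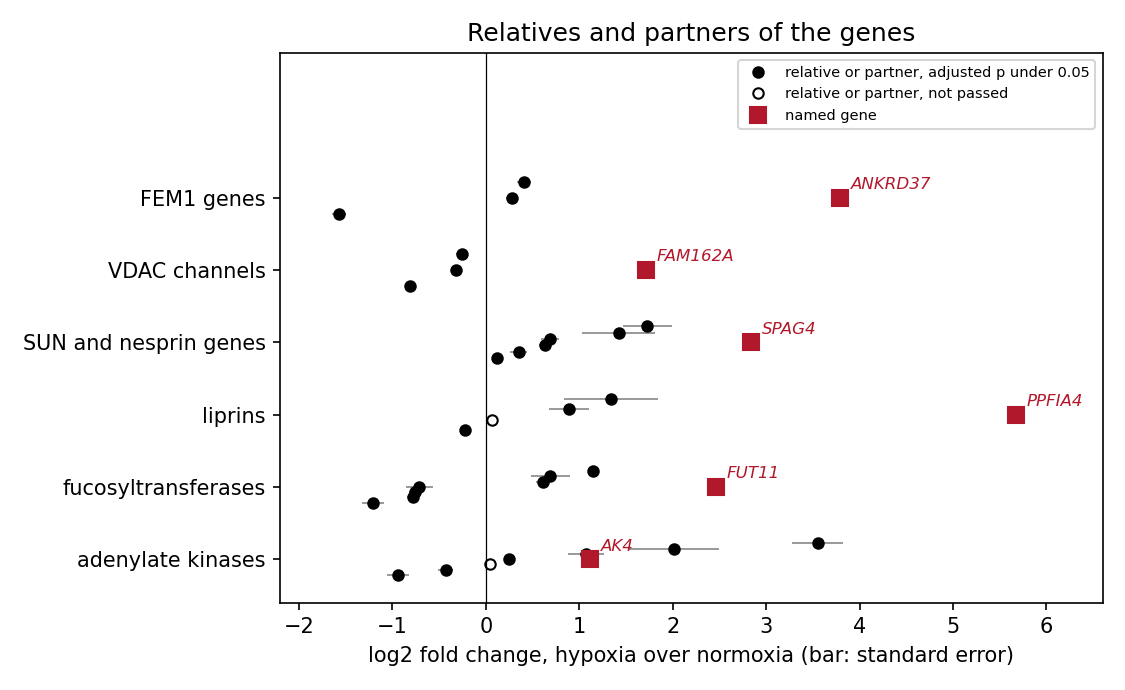
Log2-fold changes, hypoxia over normoxia, of the tested genes of each family or partner list (circles, filled at an adjusted p under 0.05, with standard errors) and of the gene the list belongs to (squares). PPFIA4, SPAG4, FUT11, FAM162A and ANKRD37 each lie to the right of every gene of their list, and AK4 lies to the left of AK7 and AK8.

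The balance between each gene and 1 relative was followed as a ratio of FPKM within each library, for 5 pairs. The ratio of PPFIA4 to PPFIA1 was 0.256, 0.260 and 0.234 in the hypoxia libraries and 0.00229, 0.00268 and 0.00796 in the normoxia libraries. The ratio of TMEM45A to TMEM45B went from 0.0780 ± 0.0367 to 0.719 ± 0.0436 (SD, n = 3), and that of FUT11 to FUT10 from 3.52 ± 0.779 to 31.9 ± 6.21. SPAG4 to SUN1 went from 0.0377 ± 0.0153 to 0.251 ± 0.0187. The smallest move was that of AK4 to AK3, from 0.481 ± 0.0338 to 0.874 ± 0.0227. In each pair the hypoxia and normoxia libraries did not overlap (two-sided exact permutation test, p = 0.1, adjusted p = 0.1 over 5 pairs, the smallest p that 3 libraries against 3 allow). Each numerator gene had already separated the conditions by itself, beside a smaller change of its relative. The separation of the ratios was therefore largely given in advance and is no further support. No share over other gene pairs was computed.

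Beside them, 21 of the 22 well-studied HIF targets were tested and 21 were higher (39.2% of all genes tested were), with a median log2-fold change of 2.62. They ranged from 0.12 for the glycolytic enzyme gene ENO1 (edgeR adjusted p = 0.0428), whose conditions overlapped, to 6.69 for the prolyl hydroxylase gene EGLN3. CA12 had at most 10 counts in any library and was not tested. PPFIA4 lay between EGLN3 and NDRG1 (5.40), and AK4 between ALDOA (0.87) and EGLN1 (1.49). Of 10 HIF subunit and regulator genes, 8 were tested, of which 6 were higher, 1 was lower and 1 (VHL) did not pass. The shares over all genes tested were 39.2% higher and 38.5% lower. The transcript of HIF1A was at 16.2 FPKM in hypoxia and 75.1 in normoxia (log2-fold change -2.26, SE 0.083), and that of EPAS1, the alpha subunit HIF-2, at 51.5 and 18.9 FPKM (1.40, SE 0.065). EGLN1 and EGLN3 belong to both lists.

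The nearest genes by pattern were sought among 11567 other genes with a mean log2 CPM of at least 1, by the root mean square difference of their log2 CPM from those of each gene over the 6 libraries, each centred on its normoxia mean. The nearest to AK4 were UBXN7 (0.031 on the log2 scale) and SLC25A37 (0.037), a mitochondrial iron carrier gene. BMT2 (0.039) and the mitophagy receptor gene BNIP3 (0.056) were nearest to FAM162A, and CPZ (0.051) and LOC107984449 (0.054) to FUT11. The nearest genes to the other 4 lay farther off. IGFBP3 (0.11) and LOC101928126 (0.12) were nearest to TMEM45A, NACAD (0.11) and PBXIP1 (0.13) to SPAG4, SEC31B (0.13) and the transcription repressor gene BHLHE40 (0.15) to ANKRD37, and NDRG1 (0.19) and LINC02783 (0.24) to PPFIA4. NDRG1 was far more abundant than PPFIA4, at 10100 CPM in hypoxia and 238 in normoxia. The libraries of a condition are shared by all genes, so this likeness describes 6 libraries and tests nothing.

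Neighbouring genes in GENCODE v29 were then examined. They were the nearest 2 on each side among genes with a row in the count table, and any gene that overlapped. Since the build behind the counts is uncertain, only their order, spacing and exon overlap in that annotation were used, and the overlaps may differ in the annotation used for counting. Of 30 neighbours in the count table, 26 were tested, of which 11 were higher, 7 lower and 8 did not pass. Across all genes tested, 39.2% were higher and 38.5% lower. By more than 1 on the log2 scale, 5 of the 26 were higher, as were 20.2% of all genes tested, so neither count of higher neighbours stood far from the share over all genes. C4orf47, downstream of ANKRD37, went from 0.142 to 3.81 CPM (log2-fold change 4.67, SE 0.35, edgeR adjusted p = 1.39e-09), more than ANKRD37 itself. ADORA1, an adenosine receptor gene downstream of PPFIA4, went from 0.178 to 1.03 CPM (2.49, SE 0.53). LRP2BP starts on the opposite strand with a gap of 122 bases to ANKRD37. Its mean went from 0.249 to 0.588 CPM (log2-fold change 1.18, SE 0.48, edgeR adjusted p = 0.0321). AGAP5 (1.19) and ZSWIM8 (1.01), near FUT11, were the others. Like PPFIA4, the genes C4orf47, ADORA1 and LRP2BP did not meet the filter on low counts in all normoxia libraries. They entered the test through hypoxia, where they are high, which limits their p-values and the count of 5.

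The other 6 higher neighbours had smaller changes, namely SNX25 (0.69) near ANKRD37, CSTA (0.62) near FAM162A, CPNE1 and ERGIC3 (0.52 each) near SPAG4, and JAK1 (0.27) and LEPROT (0.19) near AK4. Near refers to place in this order only, as JAK1 and LEPROT lie 181045 and 188442 bases from AK4. Several of the closest neighbours were lower or did not pass the test. SEC24C, a vesicle coat gene that ends 130 bases before FUT11 on the same strand, was at 164 CPM in hypoxia and 170 in normoxia (log2-fold change -0.06, edgeR adjusted p = 0.303). CHCHD1, 1796 bases beyond FUT11, had a log2-fold change of -0.47. MIX23, on the opposite strand 945 bases before FAM162A, had one of -0.29 and WDR5B, which shares 3 exon bases with FAM162A, one of -0.84. TMEM183A, 1650 bases before PPFIA4, had one of -0.24. FUT11 also shares 572 exon bases on the opposite strand with AC022400.8, which has no row in the count table under that name. The use of strand in counting is not stated, so reads from these shared bases cannot be assigned to either gene.

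The labelled cell type was checked with markers, which cannot tell SCC25 from another oral squamous line. Of 8 squamous epithelial markers all were in the table, EPCAM being the most abundant at 164 FPKM in hypoxia and 202 in normoxia, and KRT5 and SFN were present, whereas KRT14 had at most 1 count in any library. Their summed level was 423.5 to 437.5 FPKM in the hypoxia libraries and 467.5 to 478.8 in the normoxia libraries. Of 7 tested, 2 were higher, 4 lower and 1 (TP63) did not pass (39.2% of all genes tested were higher and 38.5% lower). KRT6A fell the most, from 16.5 to 0.951 CPM (log2-fold change -4.12, SE 0.25), while CDH1 (1.35) and KRT17 (1.06) rose. Markers of fibroblasts summed to 2.95 to 3.95 FPKM in hypoxia and 0.516 to 0.959 in normoxia, of which COL1A1 was the most abundant (3.08 and 0.624 FPKM), while DCN had at most 4 counts in any library and LUM, which was not tested, had 27, 9 and 8 counts in hypoxia against 1, 1 and 2 in normoxia. Of 2 tested, 1 was higher and 1 (PDGFRB) did not pass. Immune and endothelial markers summed to 16.24 to 20.02 FPKM in hypoxia and 18.2 to 19.8 in normoxia, nearly all of it CD68 (18.5 and 19.1 FPKM), which did not pass the test, and PTPRC and CD3E had at most 2 counts in any library. The endothelial markers, too low to be tested, had 10, 9 and 4 counts in hypoxia against 0 in each normoxia library for VWF, and 5, 9 and 10 against 2, 0 and 0 for PECAM1. The part of these fibroblast and endothelial marker differences in the rise of the 7 genes was not tested. In bulk RNA, more cells with a transcript and more RNA per cell cannot be told apart.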

How the data were processed

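RNA of SCC25 cells was sequenced from 6 libraries made with a SMARTER mRNA-Seq kit. The authors deposited a table of counts, whole-number reads per gene without normalization, and FPKM values of these 21776 genes. In 21775 of them, the 7 included, the deposited FPKM followed from the counts, 1 gene length and the library total within a relative tolerance of 0.0001. The aligner, annotation, counter and use of strand are not given in the sources used here. The submitters' processing notes name GRCm38 and mm10, which are mouse builds, although gene names and samples are human.

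Here the counts were fitted in edgeR 4.0.16 under R 4.3.3 (filterByExpr, TMM, glmQLFit and glmQLFTest, condition as the only term, Benjamini-Hochberg adjustment at 0.05). Standard errors are the log2-fold change divided by the square root of F; log2 CPM used a prior count of 2. The depth of 29637189 to 37278703 reads gave the 7 genes at least 10 counts in every library. All pairs of libraries of a condition differed by more than counting noise (chi-square per gene 5.11 to 10.8), so none was treated as a library deposited again, which does not show that they are separate cultures. Alternatives were DESeq2 1.42.0, its size factors, other filters, the replicate number as a block, glmTreat, each library left out, and limma 3.58.1 on FPKM. The 7 genes and the lists were chosen with earlier results of these data known. Genes named are the 7, up to 3 of each list with the largest changes and their closest paralogs, the 2 nearest by pattern and the genomic neighbours; other list members were named after their values were seen.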

Additional observations from a re-analysis of the deposited data

How the results depend on the processing

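The number of genes with an adjusted p under 0.05 was 11090, lay between 8851 and 11920 over the other tools, units and filters, and fell to 2889 when the null was a change of at most 2-fold (glmTreat), where fewer genes pass by construction. All 7 genes were higher in every fit. Of 106 results for single genes under the alternatives, 106 kept their direction and their side of the threshold. With 1 library left out, the log2-fold changes were 1.07 to 1.13 (AK4), 1.63 to 1.81 (FAM162A), 2.37 to 2.49 (FUT11), 2.59 to 3.17 (SPAG4), 3.18 to 3.81 (TMEM45A), 3.69 to 3.92 (ANKRD37) and 5.30 to 6.43 (PPFIA4), and the number of genes called was 10669 to 11390. On the log2(FPKM + 1) scale, which understates changes from low levels, the limma change was 2.29 for PPFIA4, 2.55 for ANKRD37 and 2.5 for TMEM45A, and with a pseudocount of 0.1 it was 4.63, 3.61 and 3.37.

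With the replicate number as a block, 10875 genes were called and the log2-fold change of PPFIA4 was 5.67 and that of AK4 1.12. Whether the numbers mark pairs is not settled here. Deviations of same-numbered libraries from their group means correlated across genes at -0.069 to 0.018, and 0 of 3 hypoxia libraries correlated best with its own number. With 3 libraries of each condition, these values cannot exclude pairs that share small differences. Summing ANKRD37 with UFSP2 (0.92) was chosen after the data had been seen. Summing AK4 with its pseudogenes was not run, as no row of the count table carries such a name. Requiring at least 10 counts in every library moved the log2-fold changes of shared genes by a median of 0.077. PPFIA4 had 10 to 31 counts in the normoxia libraries, which limits the precision of its fold change.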

Other observations

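The deposited annotation lists Gene Ontology (GO) terms for each gene. TMEM45A carries 2 GO terms, FUT11 5, ANKRD37 and PPFIA4 6 each, FAM162A 9, SPAG4 11 and AK4 21, against a median of 12 over the 12420 tested genes with a term. The term cellular response to hypoxia is given to AK4 and FAM162A, and not to the other 5, which rose by more. It covers 87 (0.7%) of the tested genes with a term, of which 48 were higher under hypoxia, where 39.2% of all genes tested were higher. The term mitochondrion is given to ANKRD37, AK4 and FAM162A. It covers 1185 (9.54%) of the tested genes with a term, of which 293 were higher, a smaller share than over all genes tested, while that for the hypoxia term was larger. Neither difference was tested.

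The HIF core motif was also counted in the promoter windows of the 8096 tested genes that have exactly 1 window, of which 63.6% held it. Among the 613 genes that were higher with a log2-fold change over 2 the share was 52.7%, among the 827 with a change over 1 to 2 it was 55.5%, and among the 937 that were lower with a change below -1 it was 72.1%. The median content of G and C was 65.0%, 65.3% and 64.7% in these groups. The differences between these shares were not tested.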
